A study of Pangasianodon hypophthalmus with 14 samples.

Results

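The oldest and the youngest stage of a developmental series of tra catfish (*Pangasianodon hypophthalmus*) were compared, 11 days post fertilization (dpf) against 2 dpf. The comparison is between 4 of the 14 libraries of the series, 2 at each of these stages, while the spread for the test was estimated over all 14. It covers all 21656 genes of the count table, of which 19310 had enough counts to be tested. The study followed whole embryos and larvae by RNA-seq every other day from 2 to 8 dpf and daily from 8 to 11 dpf, the period in which this fish gains the ability to breathe air with its swim bladder, and its title places it in the context of terrestrial adaptation. Embryos had hatched within 1 day, so both ends of the span are larvae. No treatment, genotype or tissue distinguishes the groups. They share species and whole-body sampling and differ by age alone as far as the labels say, and each library was made from a pool of 4 animals according to the methods.

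A fish larva that has just hatched still lives on its yolk, divides its cells rapidly, and patterns the body axis and the nervous system with embryonic regulators. Over the following days it begins to feed, fills its swim bladder, replaces embryonic with later blood cells and builds muscle, bone, pigment and a working gut. In tra catfish the swim bladder also becomes a lung-like organ with folded, vascular walls, which needs elastic tissue and a surfactant film on its surface.

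The 2 dpf libraries held 5785774 and 6595758 counts in genes and the 11 dpf libraries 6928056 and 6520633, within a range of 4112131 to 11609823 over the series. A gene with 3 counts, taken as the detection floor, stood between 0.395 and 0.470 CPM (read counts scaled to a common library size) in these 4 libraries. The replicates were not equally alike at both ends. A difference of more than 2-fold between replicates was seen in 29 of 4947 genes of 200 counts or more at 2 dpf and in 0 of 4522 at 11 dpf, and a chi-square per gene, which is 1 for random sampling of reads, was 18.7 at 2 dpf and 1.29 at 11 dpf. According to the methods, RNA of both pools of a stage entered library construction in equal amounts, and whether the 11 dpf pair shares RNA was not tested. The p-values rest on a spread estimated over the pairs of all 7 stages, with a chi-square per gene from 1.13 at 6 dpf to 29.6 at 4 dpf. They therefore measure only the spread between libraries of a stage, which may be technical. Such a pooled estimate can understate the spread at 2 dpf.

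Over the whole span, 4025 genes (20.8% of those tested) were called, 2438 higher (12.6%) and 1587 lower (8.22%) at 11 dpf. The counts called in each gene list below are to be read against these shares. A call needed an adjusted p under 0.05 (edgeR, quasi-likelihood F test, p-values adjusted by Benjamini and Hochberg's method) and a log2 fold change (log2FC) beyond 1 in either direction. Upregulation reached further than downregulation. The median log2FC was 1.78 among the genes called higher and -1.35 among those called lower, 477 genes rose and 75 fell by more than 3 on the log2 scale, and 166 rose and 13 fell by more than 5. No count was found in either 2 dpf library for 34 of the genes called higher, and in either 11 dpf library for 7 of those called lower. The split between directions depended on the scaling. TMM scaling (trimmed mean of M values) left the median log2FC of all genes at -0.06 and gave 60.6% of the calls as higher. By library totals alone the median was -0.34 and 38.0% of 4754 calls were higher, with the 10 largest genes taking 9.22% and 13.3% of the counts at 2 dpf and 21.3% and 21.6% at 11 dpf. Fold changes below are TMM values, so each would stand lower by about the difference of these medians by library totals. A stricter test, against a log2FC of 1 rather than 0, called 1720 genes, 1267 higher and 453 lower.

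Among called genes with a symbol, at least 20 CPM in the higher stage and no overlap between the libraries of both stages, the 10 with the largest rise were mostly genes known from gut, pancreas, liver, blood, bone and swim bladder. Lactase-phlorizin hydrolase (lct), an enzyme of the intestinal brush border, stood at 0.282 and 0.526 CPM at 2 dpf and at 141 and 149 CPM at 11 dpf, a 340-fold difference (log2FC 8.41 ± 0.67 SE, adjusted p = 3.48e-08). With only 2 and 4 counts at 2 dpf, the size of this fold is uncertain. The ileal bile acid binding protein fabp6 (1.97 and 1.58 against 478 and 477 CPM, log2FC 8.06 ± 0.71) and the elastase ela2l (LOC113530458; 1.97 and 3.03 against 670 and 649 CPM, log2FC 8.03 ± 0.64) followed. The osteocalcin gene bglapl (LOC113538315), which encodes a protein of mineralized bone, rose from 0.564 and 1.32 to 262 and 244 CPM (log2FC 8.03 ± 0.26, adjusted p = 1.98e-12; 8.76 without 2 dpf replicate 2). All 4 genes were near or under a few CPM in both 2 dpf libraries and above 100 CPM in both 11 dpf libraries. The other genes named by the same rule were atp4a, hbae5, fabp10a, sftpba and cel, described below, and zgc:153896 (LOC113531844), which went from 0.282 and 0.263 to 46.1 and 44.1 CPM and for which only this symbol is at hand.

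The 10 genes with the largest fall under the same limits were a less uniform group. smpd2a (LOC113525158), a sphingomyelinase gene, had 91.2 and 65.3 CPM at 2 dpf and 1 read in each 11 dpf library, a ratio of 512 with a 95% counting interval of 141 to 4229. Its level was already down at 4 dpf, with a stage mean of 0.450 CPM. acp5a (LOC113525065), a tartrate-resistant acid phosphatase known from bone-resorbing osteoclasts, fell from 30.5 and 33.3 to 0.443 and 1.25 CPM (log2FC -5.22 ± 0.38), or by 6.11 without 11 dpf replicate 2. The apolipoprotein gene apoa1a and the deiodinase gene dio3b come next and are described with lipid transport and with the thyroid axis. cmn (calymmin, known in zebrafish from the notochord sheath) fell from 330 and 333 to 33.8 and 29.5 CPM, and fgfbp2a, an FGF-binding protein gene, from 414 and 327 to 31.5 and 29.5 CPM. The remaining 4 of the 10 were otos2, pla2g15, slc13a4 and ntd5, with log2FC between -3.89 and -3.32. Genes under 20 CPM, some of which changed by more, are not among them.

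**Figure D1:**
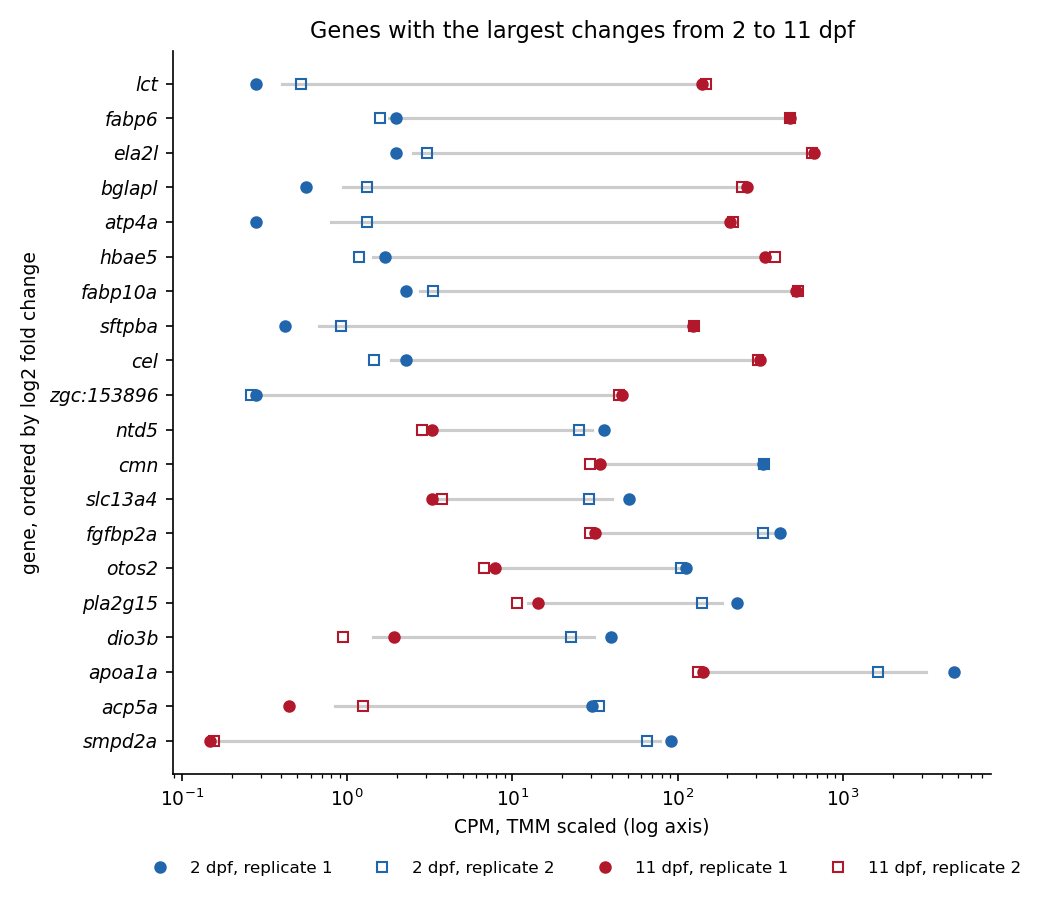
CPM in each of the 4 libraries (log axis; blue 2 dpf, red 11 dpf; filled circles replicate 1, open squares replicate 2) of the 10 genes that rose most and the 10 that fell most among those with a symbol and at least 20 CPM in the higher stage. lct moved from 0.282 and 0.526 to 141 and 149 CPM at the top and smpd2a from 91.2 and 65.3 to 0.148 and 0.157 CPM at the bottom.

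Of 9 globin genes tested, 8 were called higher and 0 lower, with a median log2FC of 7.56, or 6.15 with genes at 0 counts placed at their bound. Of these 9, 3 carry only LOC identifiers and were taken as globins because the study's lists of oxygen transport genes, which were made from these samples, hold them. Their direction, and the list's median with them, is therefore not independent evidence, and of the 6 with a symbol 5 were called higher. LOC113536204 stood at 18.9 and 14.3 CPM at 2 dpf and at 4532 and 4479 CPM at 11 dpf (log2FC 8.08 ± 0.84, adjusted p = 8.71e-07). LOC113536294 went from 5.64 and 6.32 to 2183 and 2248 CPM (log2FC 8.53 ± 0.92). hbae5 (LOC113527510), an embryonic alpha globin in zebrafish, also rose, from 1.69 and 1.18 to 339 and 388 CPM (log2FC 7.97 ± 0.50). hbaa2 (LOC113536070) had 0 counts at 2 dpf and 7.68 and 4.23 CPM at 11 dpf, which is at least 29.4-fold higher taking 3 counts over both 2 dpf libraries together as the limit, and hbba2 had 1 count at 2 dpf and 6.79 and 5.33 CPM at 11 dpf (ratio 89.4, 95% counting interval 15.6 to 3573). Globins as a whole took 0.00697% and 0.00781% of all counts at 2 dpf and 0.722% and 0.725% at 11 dpf. Most of the 11 dpf share came from LOC113536204 (30689 and 28571 counts) and LOC113536294 (14786 and 14339 counts). Both were taken from the study's lists, so the rise in share is not independent evidence either. Myoglobin (mb), the oxygen store of muscle, rose 4.15-fold (log2FC 2.05 ± 0.20), cygb rose with a log2FC of 1.71 ± 0.31, and neuroglobin (ngb) gave 2.26 and 2.63 against 2.81 and 2.66 CPM (adjusted p = 0.801). In RNA of whole animals fewer cells of a type and less RNA per cell cannot be told apart, here and in every result that follows.

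Fewer calls were made among the genes that make and hold hemoglobin. Of 22 genes of heme synthesis and of the red cell, 7 were called higher and 1 lower (median log2FC 0.37, against -0.06 for all genes). These are 31.8% and 4.55%, against 12.6% and 8.22% of all genes. The erythroid enzyme alas2, which starts heme synthesis in red cells, rose from 9.02 and 8.03 to 101 and 116 CPM (log2FC 3.67 ± 0.25, adjusted p = 6.51e-09). gata1b, a transcription factor of the erythroid lineage, rose from 0.987 and 0.790 to 7.68 and 10.3 CPM (log2FC 3.32 ± 0.33). The anion exchanger slc4a1a (log2FC 2.52 ± 0.21) and the membrane skeleton gene epb41b (2.67 ± 0.21) of the red cell rose as well, while the spectrin gene sptb gave 132 and 220 against 249 and 236 CPM (adjusted p = 0.145). Erythropoietin (epo), the hormone that drives red cell production, stood at 0.423 and 0.395 CPM at 2 dpf and at 2.07 and 1.72 CPM at 11 dpf (log2FC 2.17 ± 0.59, adjusted p = 0.00657).

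Genes known from the swim bladder and the lung divided into those with a very large rise and those without one. Of 23 tested, 8 were called higher and 3 lower (34.8% and 13.0%, against 12.6% and 8.22% of all genes, median log2FC 0.51). sftpba (LOC113543964) encodes surfactant protein B, which keeps the lining of an air space from collapsing, and stood at 0.423 and 0.921 CPM at 2 dpf and at 124 and 125 CPM at 11 dpf (log2FC 7.48 ± 0.53, adjusted p = 8.09e-09), or 8.14 without 2 dpf replicate 2. Its second copy sftpbb had 8.04 and 6.19 against 10.0 and 10.2 CPM and was not called (log2FC 0.51 ± 0.22, adjusted p = 0.0730). slc34a2a (LOC113547662), a sodium-phosphate cotransporter whose mammalian counterpart marks surfactant-producing cells of the lung, had 3 counts in all at 2 dpf and 28.5 and 25.2 CPM at 11 dpf, a ratio of 132 with a 95% counting interval of 44.7 to 642. Its reads at 2 dpf were all in replicate 2, and the fitted log2FC of 6.92 became 6.03 without replicate 1 and 10.58 without replicate 2. The second copy slc34a2b (LOC113530978) was well above the floor at 2 dpf and rose less, from 18.5 and 19.1 to 56.0 and 54.7 CPM (log2FC 1.56 ± 0.19). Both elastin genes rose, elna (LOC113543068) from 3.81 and 6.32 to 566 and 617 CPM (log2FC 6.86 ± 0.36) and elnb (LOC113541665) from 6.06 and 9.08 to 79.6 and 92.2 CPM (log2FC 3.49 ± 0.21). Elastin forms the recoiling fibres of lungs, vessels and, in teleosts, of the outflow tract of the heart. Whole-body RNA does not place the transcripts of the elastin genes, of slc34a2a or of any other gene of this list in 1 organ. The smooth muscle genes acta2 (log2FC 1.82 ± 0.16) and tagln (1.99 ± 0.15) rose about 4-fold or less.

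The surfactant lipid transporter abca3 moved the other way, from 114 and 120 to 49.6 and 53.6 CPM (log2FC -1.18 ± 0.13, adjusted p = 2.53e-06). So did foxa2 (LOC113538820), a transcription factor of foregut endoderm and floor plate, with 9.59 and 5.53 against 2.66 and 3.76 CPM (log2FC -1.23 ± 0.32). The foxa2 call was lost without 2 dpf replicate 1 (log2FC -0.79) and without 11 dpf replicate 1. Across the stages between, sftpba had stage means of 3.55, 2.04, 34.0, 20.3 and 152 CPM at 4, 6, 8, 9 and 10 dpf and thus passed the midpoint of its rise on the log2 scale at 8 dpf. Its 4 dpf replicates gave 6.95 and 0.150 CPM, so the mean at that stage rests on replicate 1. slc34a2a passed it at 4 dpf with a stage mean of 7.49 CPM and stayed between 20.2 and 26.9 CPM from 6 dpf on.

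The digestive tract showed 2 groups of genes with different timing. Of 11 genes of the exocrine pancreas, 7 were called higher and 1 lower (median log2FC 5.85), and of 26 genes of stomach and intestine 17 were called higher and 0 lower (median 2.56). Among the enzymes that rose, the carboxyl ester lipase cel went from 2.26 and 1.45 to 314 and 305 CPM (log2FC 7.38 ± 0.30), trypsinogen prss1 (LOC113526444) from 3.24 and 3.29 to 417 and 423 CPM (128-fold) and amylase amy2a (LOC113524955) from 6.91 and 3.29 to 404 and 411 CPM (6.33 ± 0.26, or 6.94 without 2 dpf replicate 1). All 7 upregulated members had first passed their midpoint by 6 dpf, and some fell again after that. The stage mean of prss1 was 119 CPM at 6 dpf and 31.9 CPM at 9 dpf. That of amy2a was higher at 6 dpf (540 CPM) than at 9 dpf (107 CPM) or 11 dpf (408 CPM). Pancreatic genes took 0.0352% and 0.0221% of the counts at 2 dpf and 0.276% and 0.272% at 11 dpf.

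The gastric proton pump, which acidifies the stomach, came last. Its catalytic subunit atp4a had 0.282 and 1.32 CPM at 2 dpf and stage means between 2.14 and 2.50 CPM from 4 to 9 dpf, then 82.0 CPM at 10 dpf and 207 and 217 CPM in the 11 dpf libraries (log2FC 7.99 ± 0.41, adjusted p = 1.80e-10). Without 2 dpf replicate 1 its log2FC was 7.31 and without replicate 2 it was 9.46. The beta subunit atp4b rose from 3.24 and 2.76 to 53.3 and 52.7 CPM (log2FC 4.14 ± 0.29) and also passed its midpoint at 10 dpf. These were the only 2 of the 17 upregulated gut genes to do so at 10 dpf or later. By contrast 13 of the 17 had passed it at 4 dpf, among them the chitinase chia.2 (LOC113539751), a digestive enzyme for chitin, with 21.9 and 20.7 CPM at 2 dpf, a stage mean of 1510 CPM at 4 dpf and 1252 and 1244 CPM at 11 dpf. The peptide transporter slc15a1a of the gut epithelium rose from 1.97 and 2.24 to 68.4 and 69.3 CPM (log2FC 5.02 ± 0.19). The tight junction gene cldn18, known from stomach and lung, had 3 counts in all at 2 dpf and 17.4 and 13.0 CPM at 11 dpf (ratio 74.8, 95% counting interval 25.2 to 366).

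**Figure D2:**
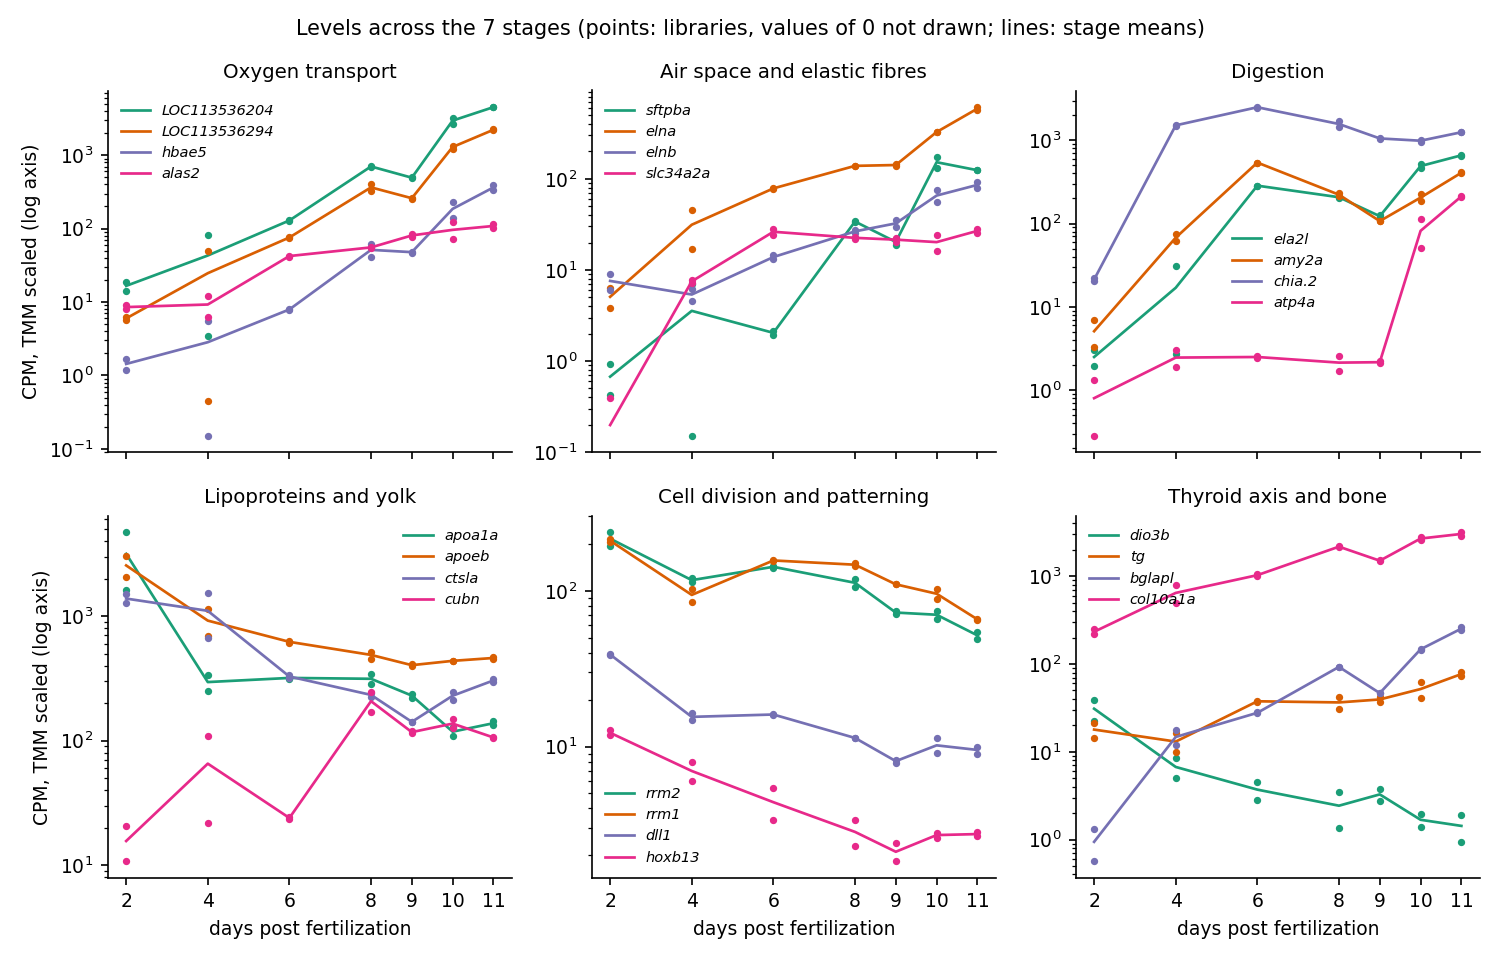
CPM (log axis) at the 7 stages of 4 genes in each of 6 groups; points are the 2 libraries of a stage, lines join stage means, and values of 0 are not drawn. The pump gene atp4a stays between 2.14 and 2.50 CPM from 4 to 9 dpf and reaches 212 CPM at 11 dpf, while apoa1a falls from 3169 CPM at 2 dpf to 296 CPM at 4 dpf.

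Of 22 genes of lipid transport and yolk use, 9 were called lower, 1 higher and 12 not (median log2FC -0.65), and together they took 2.23% and 1.73% of all counts at 2 dpf and 0.545% and 0.548% at 11 dpf. apoa1a (LOC113531212), the main protein of high-density lipoprotein and in fish larvae made by the yolk syncytial layer, had 4715 and 1623 CPM at 2 dpf, which differ nearly 3-fold between replicates, and 143 and 133 CPM at 11 dpf (log2FC -4.52 ± 0.37, adjusted p = 4.75e-08). Without 2 dpf replicate 1 its log2FC was -3.56. apoeb (LOC113545453) fell from 3038 and 2078 to 469 and 454 CPM (log2FC -2.47 ± 0.24). The lysosomal protease ctsla fell from 1506 and 1265 to 296 and 313 CPM (-2.19 ± 0.27). apob, the structural protein of very-low-density lipoprotein, fell from 4295 and 6038 to 2366 and 2410 CPM (-1.11 ± 0.26), a call that was lost without 2 dpf replicate 2 (-0.85). cubn, the receptor that takes up filtered proteins in kidney and gut, was the 1 member called higher, from 10.7 and 20.5 to 107 and 105 CPM (2.76 ± 0.47).

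Of 39 genes of liver plasma proteins, 22 were called higher and 1 lower (median log2FC 1.04). The liver fatty acid binding protein fabp10a (LOC113532634), a marker of hepatocytes in zebrafish, went from 2.26 and 3.29 to 524 and 536 CPM (log2FC 7.56 ± 0.68, adjusted p = 1.76e-07). Hemopexin (hpxa, LOC113525873), which binds free heme, rose from 260 and 194 to 6122 and 5947 CPM (log2FC 4.73 ± 0.35). ahsg2 rose from 12.4 and 11.6 to 811 and 771 CPM (6.04 ± 0.24), whereas its relative fetub was the member called lower, from 1024 and 1202 to 263 and 253 CPM (-2.11 ± 0.19). The members of this list therefore included a fetuin gene in each direction.

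Muscle genes took up a larger part of the libraries at 11 dpf. Of 76 sarcomere genes, 49 were called higher and 4 lower (median log2FC 1.44), and their counts made up 5.84% and 8.53% of the total at 2 dpf and 17.6% in both libraries at 11 dpf. A large part of this share came from the titin genes ttn.1 and ttn.2, whose calls were not stable, as given below. They held 292256 and 290814 of the 6928056 counts of 11 dpf replicate 1. The skeletal actin acta1b (LOC113541505) rose from 2636 and 1923 to 10937 and 10515 CPM (log2FC 2.23 ± 0.26). The fast myosin light chain mylpfa rose from 565 and 604 to 4911 and 4691 CPM (3.04 ± 0.21), and parvalbumin pvalb4, which speeds relaxation of fast muscle by binding calcium, from 38.8 and 61.1 to 712 and 712 CPM (3.83 ± 0.21). The titin genes ttn.1 (11067 and 22059 against 43157 and 43791 CPM) and ttn.2 (11119 and 21223 against 42944 and 43702 CPM) differed 2-fold between the 2 dpf replicates. Their calls (log2FC 1.39 ± 0.39 and 1.42 ± 0.39) were lost without 2 dpf replicate 1 (0.98 and 1.03), and as near copies they may share reads. Among other genes with the largest gains in CPM, LOC113527991 went from 3022 and 5110 to 15550 and 16153 CPM (1.96 ± 0.29). LOC113531012 went from 15775 and 35152 to 61405 and 61362 CPM (1.27 ± 0.38), a call lost without 2 dpf replicate 1 (0.80; without 2 dpf replicate 2 it was 1.96) and without either 11 dpf library (1.27 in both cases). The heart light chain myl7 was called lower, from 27.4 and 26.3 to 11.8 and 11.0 CPM (-1.23 ± 0.15).

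Bone and cartilage genes rose in the majority of calls, 17 of 45 higher and 6 lower (median log2FC 0.75). Besides bglapl, osteopontin (spp1) rose from 5.50 and 6.05 to 151 and 152 CPM (log2FC 4.71 ± 0.21), and col10a1a, a collagen of hypertrophic cartilage that in teleosts is also made by osteoblasts, from 218 and 248 to 2907 and 3157 CPM (3.70 ± 0.24). The bone and skin collagen col1a1a rose from 2456 and 3507 to 10098 and 10664 CPM (1.80 ± 0.30). Of the 6 called lower, acp5a, described above, fell most (-5.22 ± 0.38). Outside this list, the actinodin genes and1 and and2, which encode the fibres of larval fin folds, also fell. They went from 335 and 190 to 49.5 and 49.2 CPM (-2.41 ± 0.24) and from 335 and 174 to 39.3 and 37.8 CPM (-2.72 ± 0.23). Of 19 pigment cell genes 13 were called higher and 0 lower (median 1.56), led by oca2 of melanin synthesis, with 41.2 and 38.6 CPM at 11 dpf (log2FC 3.10 ± 0.18).

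Lens crystallins and part of the myelin genes were upregulated. Myelin protein zero (mpz) rose from 0.987 and 1.05 to 71.3 and 70.5 CPM (log2FC 6.09 ± 0.29, adjusted p = 5.17e-11), mbpa from 2.12 and 3.95 to 114 and 114 CPM (5.21 ± 0.25) and mag, a myelin-associated glycoprotein gene, from 6.20 and 6.58 to 52.3 and 47.2 CPM (2.96 ± 0.19). The list held 26 genes of myelin and glia, 10 higher and 2 lower. Its median of 0.13 was below 0 by library totals (-0.15, against -0.34 for all genes). plp1a was 1 of the genes called lower (31.4 and 33.0 to 8.56 and 8.78 CPM, -1.89 ± 0.20). Of 18 lens crystallins 17 were called higher and 0 lower (median 2.85), with crybb1l1 from 16.8 and 8.95 to 97.5 and 94.1 CPM (2.90 ± 0.22).

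Photoreceptor genes rose in part, 14 of 34 higher and 3 lower (median log2FC 1.13). The rod transducin gnat1 rose from 1.27 and 1.58 to 12.4 and 11.0 CPM (log2FC 3.02 ± 0.35). The gene with the symbol rho gave 3.67 and 3.82 against 0.886 and 2.19 CPM and was called lower (-1.29 ± 0.37). This call was lost without 11 dpf replicate 1 (-0.77), with DESeq2 and in the stricter test. Without 11 dpf replicate 2 the log2FC was -2.06. All values of rho were under 5 CPM, and which of several rod opsin copies it represents is not given in the sources used here. Another gene of this list, rhol, was not called (0.846 and 0.921 against 1.62 and 2.66 CPM, 1.25 ± 0.51, adjusted p = 0.0574). Of 105 synapse and neuron genes 18 were higher (17.1%) and 3 lower (2.86%), against 12.6% and 8.22% of all genes. The median of 0.19 turned to -0.08 by library totals, where that of all genes was -0.34. The vesicular glutamate transporter slc17a7a led the synapse and neuron genes, from 0.705 and 0.921 to 10.5 and 10.2 CPM (3.63 ± 0.31). Inner ear and lateral line genes went down where they changed, 0 higher and 7 lower of 30 (23.3% lower against 8.22% of all genes, median -0.45). These included the genes of the tectorial and otolithic membranes tectb (9.02 and 7.63 to 1.92 and 1.57 CPM, -2.24 ± 0.29) and otog (27.5 and 35.7 to 6.65 and 7.68 CPM, -2.14 ± 0.22).

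Of 20 genes of lymphocytes and antigen presentation, 9 were called higher and 0 lower (median log2FC 1.15). The recombinase gene rag1, which cuts and joins antigen receptor genes in developing lymphocytes, stood at 0.423 and 1.05 CPM at 2 dpf and at 13.0 and 12.2 CPM at 11 dpf (log2FC 4.04 ± 0.40, adjusted p = 4.54e-07), or 4.84 without 2 dpf replicate 2. The invariant chain cd74a of antigen presentation rose from 0.564 and 0.395 to 7.53 and 9.09 CPM (4.07 ± 0.44). b2m, the light chain of class I antigen presentation, was already well above the floor at 2 dpf and went from 19.5 and 29.3 to 59.1 and 60.2 CPM (1.29 ± 0.16). Of 17 genes of the interferon response 11 were higher and 0 lower (median 1.27), among them stat1b (6.35 and 6.05 to 36.8 and 32.8 CPM, 2.49 ± 0.17), whose highest stage mean was 101 CPM at 6 dpf. Innate immune cell genes gave 5 higher and 2 lower of 35 (14.3% and 5.71%), shares near those of all genes.

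Within the hormonal axes, a gene of thyroid hormone inactivation had the largest change of the 23 tested. Thyroid hormone is activated by deiodinase 2 and inactivated by deiodinase 3, and in fish it drives the passage from larva to juvenile. dio3b (LOC113532162), the inactivating enzyme, fell from 39.3 and 22.6 to 1.92 and 0.941 CPM (log2FC -4.40 ± 0.41, adjusted p = 2.78e-07; -5.01 without 11 dpf replicate 1) and was already down to a mean of 6.71 CPM at 4 dpf. The activating dio2 stood at 0.564 and 0.395 CPM at 2 dpf and at 1.92 and 1.72 CPM at 11 dpf (1.90 ± 0.56, adjusted p = 0.0109), a call lost without 2 dpf replicate 2 (1.66) and without 11 dpf replicate 1 (1.82). Thyroglobulin (tg), the hormone's precursor, rose from 14.5 and 21.3 to 72.7 and 80.9 CPM (2.09 ± 0.23). The receptor genes thrab (8.04 and 12.5 to 19.2 and 22.3 CPM, 2.01-fold) and thrb (7.61 and 9.08 to 17.3 and 19.8 CPM, 1.14 ± 0.24) lay close to the limit of a call. Both calls were lost by library totals (0.73 and 0.87), and that of thrab also without 2 dpf replicate 1 (0.73) or 11 dpf replicate 2 (0.90). In all, 7 of 23 genes of the pituitary, thyroid and steroid axes were higher and 1 lower (median 0.78). Of 31 clock genes 8 were higher (25.8%, against 12.6% of all genes) and 0 lower (median 0.43). An example is per2 (13.0 and 15.0 to 51.1 and 54.6 CPM, 1.91 ± 0.16). The hour of sampling is not given in the sources used here.

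Genes of DNA replication and cell division gave 36 of 54 lower and 0 higher (66.7% lower against 8.22% of all genes, median log2FC -1.23). Both subunits of ribonucleotide reductase, which makes the building blocks of DNA, fell, rrm2 from 195 and 237 to 48.7 and 54.7 CPM (log2FC -2.06 ± 0.15, adjusted p = 1.28e-08) and rrm1 from 214 and 205 to 65.9 and 65.1 CPM (-1.68 ± 0.15). The mitotic kinase aurka fell from 25.4 and 22.1 to 7.24 and 7.52 CPM (-1.68 ± 0.18). Of 43 hox genes, which set position along the body axis, 15 were lower, 0 higher and 28 not called (median -0.85), with hoxb13 of the tail end from 12.7 and 11.8 to 2.66 and 2.82 CPM (-2.16 ± 0.28). Of 60 genes of somite and neural patterning 18 were lower, 1 higher and 41 not called (median -0.75). The Notch ligand dll1 fell from 38.9 and 39.0 to 9.01 and 10.0 CPM (-2.03 ± 0.15), whereas the related ligand dld gave 182 and 160 against 170 and 166 CPM (adjusted p = 0.887). Among oncofetal and stem cell factors 11 of 20 were lower and 1 higher (median -1.10), among them sall4 (14.7 and 15.0 to 4.13 and 3.76 CPM, -1.90 ± 0.23) and a lin28b gene (LOC113528793; 8.88 and 5.79 to 1.18 and 1.41 CPM, -2.48 ± 0.40). Ribosome biogenesis factors gave 0 higher and 2 lower of 46 and a median of -0.02, close to that of all genes.

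Calls among ribosomal proteins and the respiratory chain were all lower and were a minority of their genes. Of 82 cytosolic ribosomal proteins 11 were lower and 0 higher (13.4% lower against 8.22% of all genes, median log2FC -0.52), and their share of all counts went from 10.3% and 10.4% to 5.90% and 5.82%. Of 72 mitochondrial ribosomal proteins 22 were lower (30.6%) and 0 higher (median -0.71), and of 56 nuclear subunits of oxidative phosphorylation 13 were lower (23.2%) and 0 higher (median -0.54). The members called were led by rpl27a (336 and 369 to 113 and 98.9 CPM, -1.73 ± 0.26), mrps24 (31.0 and 43.6 to 12.8 and 12.4 CPM, -1.56 ± 0.21) and atp5md of the ATP synthase (280 and 490 to 104 and 108 CPM, -1.86 ± 0.22). The 2 dpf replicates differed widely for some of them. rpl38 had 309 and 774 CPM there and 163 and 183 CPM at 11 dpf, and its call (-1.65 ± 0.32) was lost without 2 dpf replicate 2 (-0.84), as was that of ndufc1 (-1.33 ± 0.32, then -0.50). Levels of these genes also swung between inner stages, rpl38 with stage means of 1984 CPM at 4 dpf and 152 CPM at 9 dpf.

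Of 45 genes of glycolysis and gluconeogenesis, 20 were higher (44.4%, against 12.6% of all genes) and 1 lower (median log2FC 0.93). The muscle isoforms pfkmb (3.67 and 3.03 to 60.7 and 71.3 CPM, log2FC 4.30 ± 0.20) and aldoa (130 and 137 to 615 and 585 CPM, 2.17 ± 0.16) were among them, and gapdh rose from 705 and 503 to 1858 and 1914 CPM (1.64 ± 0.24). Sarcomere genes rose in the same libraries, and their part in this was not tested. Of 30 hypoxia sensing genes 6 were higher, 5 lower and 19 not called (36.7% called, against 20.8% of all genes). Their median of -0.01 was also below 0 by library totals (-0.29, against -0.34 for all genes). The oxygen-regulated factor hif1a fell from 5.22 and 10.3 to 2.07 and 1.57 CPM (-2.08 ± 0.43) and epas1a from 67.5 and 58.2 to 30.4 and 27.3 CPM (-1.12 ± 0.14). The related genes epas1, hif1ab and hif1al of the same list were not among the 5 called lower. The oxygen-dependent hydroxylase egln3 rose from 2.40 and 2.50 to 7.53 and 8.78 CPM (1.73 ± 0.32). The hypoxia-responsive ndrg1a fell from 363 and 299 to 101 and 89.7 CPM (-1.80 ± 0.15). Also called higher were epo, described above, and vegfaa (1.97 and 1.84 to 3.84 and 3.92 CPM, 1.02 ± 0.33). igfbp1b was called lower (2.96 and 2.24 to 0.443 and 0.627 CPM, -2.25 ± 0.78). In the stricter test the calls of epas1a, egln3, epo, vegfaa and igfbp1b were lost. Those of vegfaa and igfbp1b were also lost whenever 1 of the 4 libraries was left out.

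Genes of skin and of ion regulation showed no common direction. Keratins, claudins and other skin genes gave 9 higher and 8 lower of 46 (median log2FC -0.19). These are 19.6% and 17.4%, both above the 12.6% and 8.22% of all genes. The keratin krt8 had 1462 and 1405 against 1743 and 1641 CPM (adjusted p = 0.288). The ionocyte regulator foxi3 fell from 6.91 and 4.61 to 0.886 and 0.470 CPM (-3.04 ± 0.49). Of 41 genes of ion regulation and kidney 7 were higher and 4 lower (17.1% and 9.76%, near the 12.6% and 8.22% of all genes). Their median of 0.02 turned to -0.26 by library totals, where that of all genes was -0.34. The cotransporter slc12a10.1, known in zebrafish from salt-absorbing ionocytes of the skin, fell from 9.73 and 12.9 to 1.33 and 2.51 CPM (-2.56 ± 0.30), after a stage mean of 41.1 CPM at 4 dpf.

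The study lists 76 genes of tra catfish without a counterpart in channel catfish, which does not breathe air. This list was made from genomes and not from expression. Of these genes 46 had enough counts, and 8 were called higher and 4 lower (26.1%, against 20.8% of all genes). Their median log2FC of 0.15 turned to -0.13 by library totals, where that of all genes was -0.34. The largest rise was in LOC113544571, annotated by the study as a calcium-activated chloride channel regulator, from 0.705 and 0.132 to 81.8 and 75.9 CPM (log2FC 7.53 ± 0.41, adjusted p = 3.06e-10). It was 9.05 without 2 dpf replicate 1 and 6.77 without replicate 2. A related regulator, LOC113544546, had 1 count at 2 dpf and 1.92 and 2.35 CPM at 11 dpf (ratio 31.3, 95% counting interval 5.17 to 1279). elnb, described above, also belongs to the list, and the other 5 called higher were si:ch1073-126c3.2, cunh3orf85, LOC113534207, LOC113546726 and ly6d. The 4 called lower were cmn, described above, the assembly factor pet117 (3.38 and 6.05 to 1.18 and 1.57 CPM, -1.78 ± 0.37), LOC113536891 and LOC113537824. The symbols cmn and elnb are those of RefSeq. The study lists these genes as spidroin-2-like and as an uncharacterized protein. HRG, GRP and CX3CL1, which the study ranks as its most likely air-breathing genes, were not among the genes called. Whether each of them had enough counts to be tested is not given here. The study compared each stage with the one before it and placed these genes in clusters that peaked at 2 or 4 dpf. A comparison of both ends alone can miss a peak at 4 dpf, so it does not bear on that ranking. The call of LOC113536891, a cytochrome c oxidase subunit 7C gene (-1.28 ± 0.20), was lost without 2 dpf replicate 2 (-0.92). That of LOC113537824 (10.7 and 13.7 to 5.61 and 6.58 CPM) was lost without 2 dpf replicate 2 (-0.82), without 11 dpf replicate 1 (-0.89) with DESeq2, with the 4 libraries alone, with RLE scaling and in the stricter test.

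**Figure D3:**
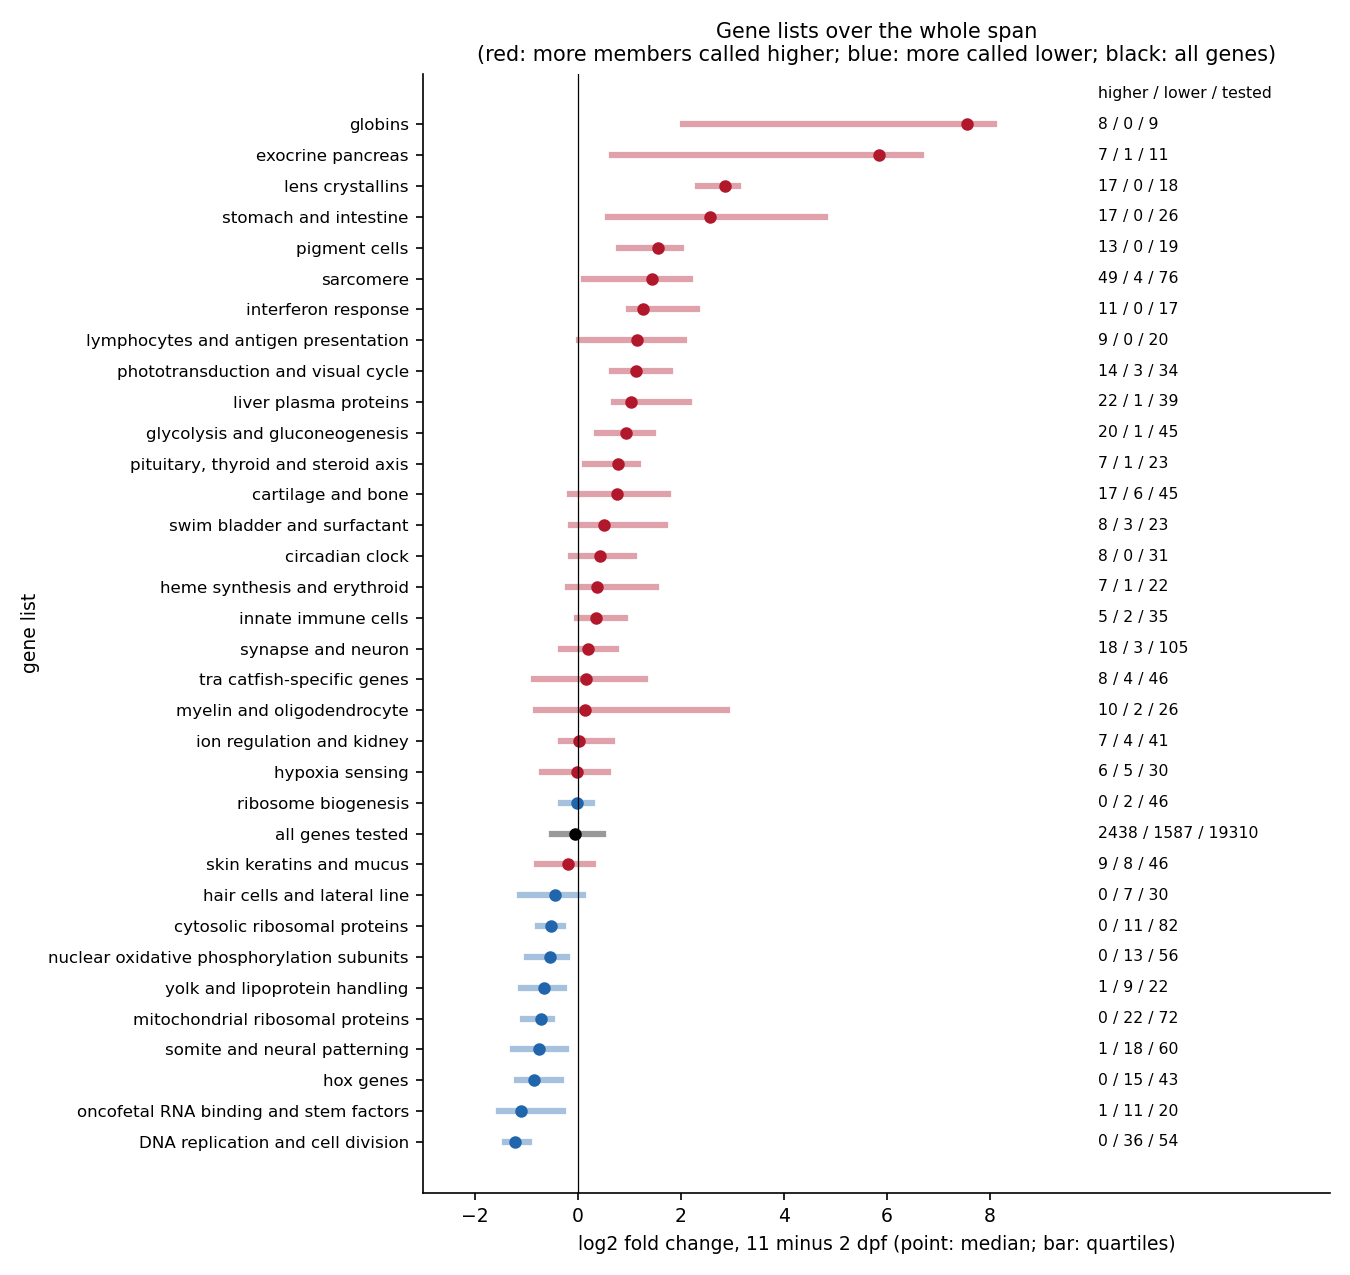
Median log2 fold change (point) and quartiles (bar) of 11 against 2 dpf over the tested genes of each list, with the numbers called higher and lower and the number tested at the right; red lists have more members called higher and blue lists at least as many called lower, and all 19310 genes are black. Globins (8 of 9 higher, 3 of the 9 taken from the study's lists), exocrine pancreas (7 of 11) and lens crystallins (17 of 18) lie at the top, and DNA replication (36 of 54 lower) at the bottom.

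The stages between both ends show when each difference was first reached, though not whether it then held. For every gene called over the span, the first stage was taken at which its mean log2 CPM lay past the midpoint between both ends. A gene could move back at a later stage. Of the 2438 genes called higher, 1402 (57.5%) were past it at 4 dpf, 516 (21.2%) at 6 dpf and 381 (15.6%) at 8 dpf. At 9, 10 and 11 dpf 51, 61 and 27 genes followed. Sampling was every other day up to 8 dpf and daily after it, so the counts per stage do not cover equal times. Of the 1587 called lower, 692 (43.6%) were past it at 4 dpf, 274 (17.3%) at 6 dpf and 278 (17.5%) at 8 dpf, and a further 256 (16.1%) at 9 dpf. The share at 9 dpf depended on the scaling and was 7.06% by library totals. It held 12 of the 13 downregulated subunits of oxidative phosphorylation, 12 of the 22 mitochondrial and 8 of the 11 cytosolic ribosomal proteins. Not all of these levels held. The median change from 2 dpf of all cytosolic ribosomal proteins was -0.63 at 9 dpf, -0.10 at 10 dpf and -0.51 at 11 dpf. For mitochondrial ribosomal proteins it stayed down, at -0.57, -0.55 and -0.70. DNA replication genes stood at -0.82 at 4 dpf and at -0.25 at 6 dpf. Upregulated genes had other times by list. Of the 8 globins 6 passed the midpoint at 8 dpf, of the 11 interferon genes 9 at 4 dpf, and of the 49 sarcomere genes 23 at 4 dpf, 8 at 6 dpf, and a later group of 18 at 8 dpf.

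The stage means moved in the same direction at every step for 81 of the genes called higher (3.32%) and 24 of those called lower. A step of any size counted, so noise between stage means can break such a course once a level is reached. These low shares therefore do not show how steadily the genes changed. All 5 inner stages lay between both ends for 856 of the genes called higher (35.1%) and 510 of those called lower (32.1%). These descriptions rest on stage means of 2 libraries, and the 4 dpf pair was less alike than the others (chi-square per gene of 29.6).

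**Figure D4:**
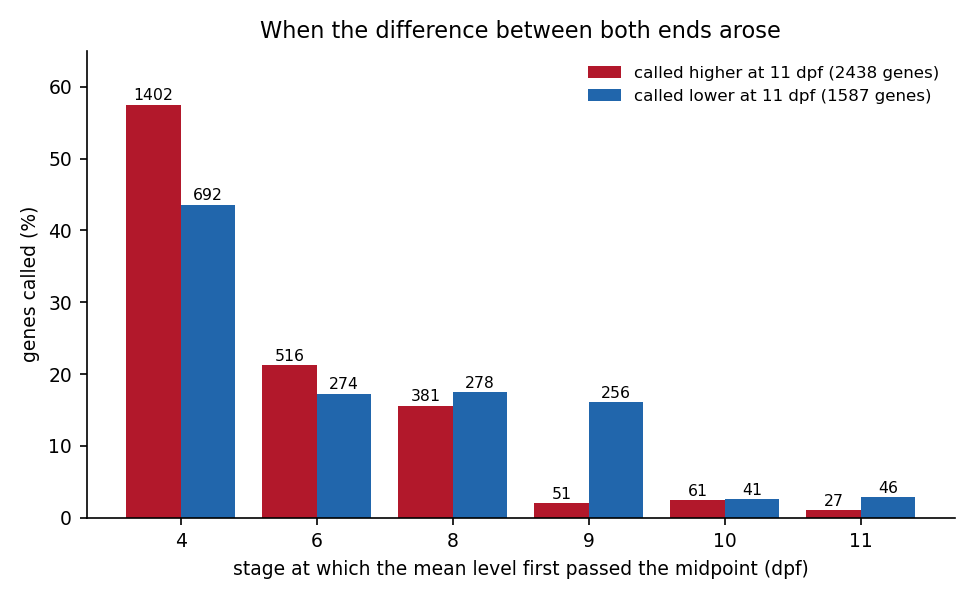
Percent of the genes called over the span (vertical axis) by the stage in dpf at which their mean log2 CPM first passed the midpoint between 2 and 11 dpf, for the 2438 genes called higher (red) and the 1587 called lower (blue). Numbers on the bars are genes, and a gene could move back later. More than any later stage, 4 dpf holds 57.5% of the higher and 43.6% of the lower genes, and 9 dpf holds 2.09% and 16.1%. Sampling was every other day up to 8 dpf and daily after it, so the bars do not cover equal times.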

How the data were processed

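Whole tra catfish were sampled at 7 stages, with 2 libraries each. RNA was depleted of ribosomal RNA, and the authors trimmed reads with Trimmomatic 0.36, aligned them to GENO_Phyp_1.0 with STAR 2.7.0 and counted them with HTSeq-count. The strand setting is not given in the sources used here. The deposited table holds these raw counts for 21656 genes, 31 of them at 0 in every library, and had 0 unused sample columns.

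The contrast of 11 against 2 dpf came from edgeR 4.0.16 (R 4.3.3). After filterByExpr 19310 genes entered a quasi-likelihood model with 1 term per stage over all 14 libraries and TMM factors, with a common dispersion of 0.01409 and Benjamini-Hochberg adjustment over all tested genes. The authors tested stages with DESeq2, which was an alternative here (1.42.0). Each standard error was obtained from the log2 fold change and its F statistic, as their ratio after taking the root of F. CPM are counts scaled to a common total after TMM, and log2 CPM had a prior count of 2. Intervals and the floor of 3 counts cover counting error only. Gene lengths were not used, so CPM are not comparable between genes. Of 11307 genes with LOC identifiers 10538 were found in the RefSeq gene table of fPanHyp1.pri and 6917 have a symbol there. No sequence or coordinate was used. Near-identical copies may share reads.

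The comparison, the 33 gene lists (32 by symbol) and the genes named were chosen with earlier results of these data known. Named were the 10 genes with a symbol that rose and the 10 that fell most among non-overlapping calls of at least 20 CPM, the 5 largest gains and losses in CPM, up to 4 called members per list of at least 5 CPM with the member of highest CPM, and the called tra catfish-specific genes. Chosen after their values were seen were dio2, thrab, thrb, abca3, foxa2, fetub, hbba2, mb, cygb, ngb, rho, and1, and2, myl7, mylpfa, plp1a, mag, atp4b, slc15a1a, sftpbb, tagln, epo, epas1a and cxcl8a. The same holds for slc34a2b, vegfaa, igfbp1b and rhol. LOC113525842, ckma, ckmb and fabp2 were chosen likewise and are counted among the named genes, but are not described. Alternatives were unadjusted p, the 4 libraries alone, RLE scaling, library totals, no filter, a mean of at least 10 counts, the replicate number as a block, the pairs of 6, 9 and 11 dpf each summed, a test against a log2 fold change of 1, and leaving out each of the 4 libraries. Scripts were tested on simulated data. Python 3.11.15 with numpy 2.4.6, pandas 2.3.3, scipy 1.17.1 and matplotlib 3.10.9 served for summaries and figures.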

Additional observations from a re-analysis of the deposited data

Results flagged for a closer look

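Comparing only both ends leaves out genes that rose or fell in between. Of the 15285 genes not called over the span, 119 had a stage mean more than 2 log2 units above both ends at an inner stage, and 7 had one as far below; 97 of the 119 peaked at 4 dpf, 17 at 6 dpf and 5 later. Of those with a symbol and a stage mean of at least 20 CPM at some stage, the 5 highest peaks and the 2 dips are given here because the comparison of the ends does not show them, as a description without a test. The chemokine gene cxcl8a, which attracts neutrophils, had 34.1 and 39.1 CPM at 4 dpf, 5.90 log2 units above the higher end, while its highest value in the end libraries was 0.395 CPM. At the same stage the intelectin gene itln3 stood 3.81 log2 units above the higher end (17.7 and 70.1 CPM), rnf227 3.76 (30.9 and 89.5 CPM) and the proton channel gene otop2 3.31 (82.7 and 113 CPM). The 4 dpf replicates differed widely in itln3 and rnf227, and the part of this in their peaks was not tested. At 6 dpf erg28, a gene of sterol synthesis, was 3.13 log2 units above (116 and 112 CPM). The skeletal actin acta1a dipped at 4 dpf by 2.33 log2 units below the lower end (91.8 and 42.4 CPM, against 369, 268, 330 and 325 CPM at the ends), and si:ch211-80h18.1 at 9 dpf by 2.12 (8.11 and 8.71 CPM).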

How the results depend on the processing

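Over the other settings the number of genes called (4025) ranged from 3606, with the pairs of 6, 9 and 11 dpf summed, to 4194, with unadjusted p, apart from 4754 by library totals and 1720 in the test against a log2 fold change of 1. DESeq2 gave 3754 with and 4169 without adjustment. Leaving out 1 of the 4 libraries gave between 3727 and 3963 genes. By library totals 2946 genes were lower in place of 1587, 38.0% of calls were higher in place of 60.6%, and 19 tra catfish-specific genes were called in place of 12; this follows from the scaling, which moves all genes. The test against a log2 fold change of 1 gave 1267 genes higher and 453 lower (73.7% higher) and 252 called members of the symbol lists in place of 476, since it asks for a fold change shown to exceed the limit. With the replicate number as a block 4006 genes were called and no named gene lost its call. The labels do not pair the numbers. Deviations from the stage mean of replicate 1 at 2 dpf and of replicate 1 at 11 dpf correlated at 0.021. The 11 dpf pair differed little beyond read sampling (chi-square per gene 1.29). This value therefore cannot show whether same-numbered libraries share more than a number. Of 208 named genes none turned from a call in one direction to a call in the other in any setting. This covers calls only. Fold changes near 0 of genes not called can change sign, since library totals lower every value. Calls were lost by 41 in the stricter test, 16 without 2 dpf replicate 2, 9 without 2 dpf replicate 1, 9 without 11 dpf replicate 1, 7 without 11 dpf replicate 2, 8 with the pairs summed, 5 by library totals and 3 with DESeq2. Depth limits genes near the floor. Bounds or counting intervals are given only where both libraries of a stage together held 3 counts or fewer. Genes with slightly more carry fitted fold changes alone, whose size is uncertain. Examples are lct (2 and 4 counts at 2 dpf), zgc:153896 (2 and 2) and epo (3 and 3).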
